A study of Mus musculus with 9 samples.

Results

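Transcripts of skeletal muscle fibers, from 35 genes, were followed in whole mouse osteosarcomas. The genes were chosen by their symbols, from the contractile apparatus and its calcium and energy supply, and make up 35 of the 55367 genes in the deposited count table. RNA-Seq was performed on spontaneous tumors of genetically engineered mice, 4 from the p53-driven model and 5 from the Myc-knockin model. The p53-driven mice are labelled Col2.3-Cre/TrpP53fl/+, in which Cre, under an osteoblast-specific promoter, removes a floxed allele of p53. The Myc-knockin mice are labelled Cre-Lox-Stop-Lox;(LSL)-c-MycT58A together with p53fl/+, so they carry the floxed p53 allele too, and Cre also switches on a Myc allele whose product carries the T58A substitution. The labels give the tissue as tumor and give no age, tumor site or batch, and Cre is not aimed at muscle in either model. The tumors are named here by their column in the table, F for p53 driven and M for Myc knockin.

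A muscle fiber contracts when thick filaments of myosin pull on thin filaments of actin, within repeating units called sarcomeres that are bounded by Z-discs and spanned by titin. Calcium released from the sarcoplasmic reticulum through the ryanodine receptor binds troponin on the thin filament and so allows contraction, and the calcium pump SERCA returns it to the store. Fast and slow fibers carry different genes for the same component, such as myosin heavy chain, light chains and troponin, and the ratio of each such pair can be read in a tumor. Bone tumors often lie against or grow into skeletal muscle, and a resected tumor can hold some of it. In whole tumors, fewer cells of a type and less RNA per cell cannot be told apart.

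The libraries were uneven, which sets what can be seen of these genes. Total counts were 3026217 in F187, 10593069 in F325, 9498026 in F331 and 6853293 in F368. In the Myc-knockin tumors they were 2716322 in M351, 4295475 in M408, 3532881 in M9, 17073285 in M624 and 15769788 in M664. In 4 libraries, 12 genes, called satellite genes here, took a large part of the counts. Their part was 44.3% in F187, 67.9% in M351, 23.2% in M408 and 81.0% in M9. They were chosen for this, as genes whose share of all counts was over 10 times higher in each of these 4 libraries than in any other. Their overlap with satellite repeats was not tested. A value of 3 counts, the floor used here, corresponded to between 0.114 CPM in M624 and 2.39 CPM in M9, where CPM is the count per 1000000 of edgeR's TMM-normalized library size. M624 and M664 also stood apart in Rn7sk, a small nuclear RNA without a poly(A) tail, at 5.33 and 9.32 CPM, here with the satellite genes left out of the total, when the other 7 tumors had at least 8858 CPM. Markers of bone were counted in every library, least in M624. Col1a1, the main collagen of bone, had its lowest value in M624, at 2098 CPM, and its highest in F368, at 89709 CPM. Sp7, a transcription factor of osteoblasts, lay between 25.9 CPM in M624 and 244 CPM in F325. Ibsp, a bone matrix protein, was at 34.1 CPM in M624 and at least 535 CPM elsewhere, and Dmp1, a marker of late osteoblasts and osteocytes, at 0.495 CPM in M624 and at least 37.9 CPM elsewhere.

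Muscle fiber transcripts were counted in every tumor, at levels that differed from tumor to tumor far more than from model to model. Summed over the 35 genes, expression was 255 CPM in F187, 19433 in F325, 334 in F331 and 2509 in F368. Among the Myc-knockin tumors the sum was 659 CPM in M351, 11831 in M408, 1959 in M9, 153 in M624 and 1332 in M664. Each model thus had 1 tumor far above the rest, and the ranges overlapped almost entirely. The highest p53-driven tumor had 76.2-fold the sum of the lowest, and the highest Myc-knockin tumor 77.3-fold. The means were 5633 ± 9259 CPM (SD, n = 4) and 3187 ± 4880 CPM (SD, n = 5), with each SD larger than its mean. As a share of the counts outside the satellite genes, the 35 genes took 2.36% in F325 and 1.96% in M408. The share lay between 0.123% and 0.366% in M351, M664, F368 and M9, and between 0.0235% and 0.0407% in M624, F187 and F331. F325 held the highest CPM of 29 of the 35 genes and M408 that of 4, while M624 held the lowest of 21 genes and F331 that of 9.

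The reads on these genes were set against reads that would fall on them from genomic DNA or stray transcription. That rate was taken in each library from 1821 chemosensory receptor genes, which bone and muscle have little use for, and scaled by exon length. It was 0.7103 reads per kilobase in F187, 1.12 in M351 and 1.24 in M9, against 0.151 in M408 and at most 0.0421 in the other 5. In F187, 646 reads were counted on the 35 genes and 186 were expected as background. In M351, 1070 reads were counted against 293 expected, and in M9, 2459 against 324. In F325, 249837 reads stood against 7.80 expected, and in M408, 64601 against 39.5. Counts were thus 3.48-fold the background in F187, 3.65-fold in M351 and 7.58-fold in M9, and at least 374-fold in the other 6 tumors. Counting a gene as seen when it had at least 10 reads and at least 3 times its background, 34 of the 35 genes were seen in F325, 33 in M664, 31 in F368, 29 in M408 and 27 in M9. The number was 24 in F331, 22 in M624, 16 in M351 and 8 in F187.

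**Figure D1:**
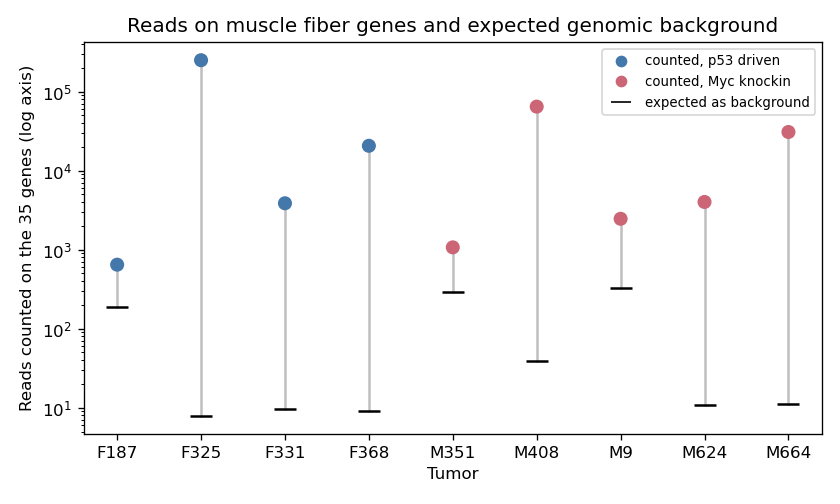
Reads counted on the 35 muscle fiber genes in each tumor (points, log axis), beside the number expected as background from chemosensory receptor genes (bars). F325, with 249837 reads, lies highest and F187, with 646, lowest, and only F187 and M351 lie within 4-fold of their background.

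The thin filament is described first. Acta1, the skeletal muscle form of alpha-actin, is listed as ENSMUSG00000031972 and lies on the minus strand of mm10 at chr8:123891769-123894751. It was at 1.97 CPM in F187, 1355 in F325, 12.9 in F331 and 102 in F368. It was at 24.0 CPM in M351, 749.96 in M408, 127 in M9, 0.724 in M624 and 239 in the Myc-knockin tumor M664. F325 and M408 were the highest tumors of their models and F187 and M624 the lowest, and the groups overlapped over nearly the whole range. The log2 fold change, Myc knockin over p53 driven, was -0.69 with a standard error of 1.62 (edgeR adjusted p = 0.820). Per kilobase of exon, the scale on which genes can be compared with each other, Acta1 was the highest of the 35 genes in 6 tumors, namely F325, F331, F368, M408, M9 and M664. Fast troponin T, Tnnt3, the subunit that ties troponin to tropomyosin, followed at 352 CPM per kilobase in F325 and 266 in M408, where Acta1 was at 882 and 488. Neb encodes nebulin, the ruler of the thin filament. Its level was nearly equal in F325 and M408, at 2168 and 2119.7 CPM, but 67.1 CPM in M664. Tpm2, a tropomyosin that muscle shares with other contractile cells, lay between 23.5 CPM in F331 and 236 CPM in F325, with 45.3 CPM in M624.

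The thick filament is described by myosin. The fast heavy chain genes Myh2, Myh1 and Myh4, whose proteins are called 2A, 2X and 2B, lie side by side on the plus strand of chromosome 11 of mm10, from 67171027, 67200052 and 67238029. Myh7, the slow heavy chain, lies on chromosome 14 from 54970684 to 54994626 on the minus strand. Myh4 was at 3.95 CPM in F187, 1399.5 in F325, 10.6 in F331 and 128 in F368. On the Myc-knockin side Myh4 was at 11.1 CPM in M351, 193 in M408, 61.3 in M9, 0.114 in M624 and 1.21 in M664. M664 was low in this gene although it was the third highest in Acta1. Myh1 was at 1.97 CPM in F187, 1014 in F325, 6.57 in F331 and 164 in F368. Myh1 was at 39.4 CPM in M351, 248.7 in M408, 104 in M9, 0.381 in M624 and 203 in M664, the Myc-knockin tumors. The Myh1 ranges overlapped, with M664 close to M408. Myh2 was at 1.19 CPM in F187, 324 in F325, 4.32 in F331 and 41.1 in F368. Myh2 was at 13.5 CPM in M351, 392 in M408, 63.7 in M9, 0.0762 in M624 and 50.3 in M664, the Myc-knockin tumors. For Myh2, unlike the other heavy chains, M408 stood above F325. Myh7 reached 116 CPM in F325 on 1495 reads. It had 30 reads in M9 with 10.7 expected as background, 10 in M351 with 9.68 expected, 10 in F187 with 6.12 expected, 34 in F368 and between 2 and 4 in the other 4 tumors. The heavy chain log2 fold changes were -2.86 (standard error 1.78) for Myh4, -1.32 (1.51) for Myh1, 0.17 (1.59) for Myh2 and -2.70 (1.72) for Myh7, with edgeR adjusted p from 0.329 to 0.962.

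The mix of heavy chains differed between tumors in a way that the overall level did not give. As shares of reads per kilobase over the 4 genes, F325 held 51.6% Myh4, 35.4% Myh1, 10.1% Myh2 and 2.99% Myh7. F331, at a level about as low as F187, held 51.4% Myh4, 30.3% Myh1, 17.7% Myh2 and 0.588% Myh7, close to F325. F368 held 39.8% Myh4, 48.5% Myh1, 10.8% Myh2 and 0.900% Myh7. Of the 3 p53-driven tumors with at least 250 heavy chain reads, F325 and F331 were thus led by Myh4 and F368 by Myh1. M408 held 25.4% Myh4, 31.0% Myh1, 43.5% Myh2 and 0.0673% Myh7. M664 held 0.513% Myh4, 81.4% Myh1, 18.0% Myh2 and 0.0512% Myh7. M9 held 26.6% Myh4, 42.9% Myh1, 23.3% Myh2 and 7.24% Myh7. Myh1 or Myh2 thus led in these 3 Myc-knockin tumors, and also in M351, where Myh1 had 58.2% on 114 reads. The models were not split by this, since Myh1 led and Myh4 came second in both F368 and M9. F187 and M624 had 28 and 19 heavy chain reads and their mix cannot be read. Reads of neighbouring family members are alike in part, since 20.6% of all 76-base windows of Myh1 transcripts, 15.3% of Myh2 and 9.38% of Myh4 also occur in another gene, mostly one of the 3, and 13.5% of Myh7 windows occur mostly in Myh6. How reads that match several places were counted is not given in the sources used here.

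**Figure D2:**
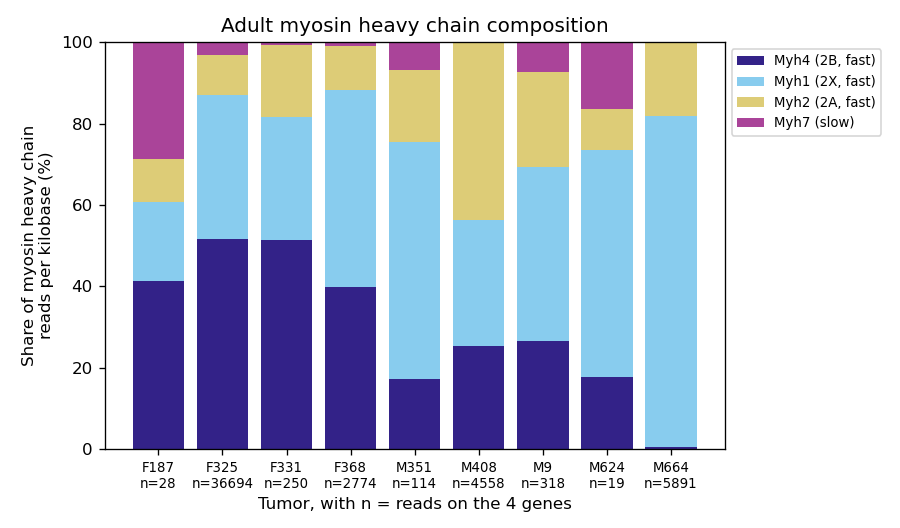
Share of Myh4, Myh1, Myh2 and Myh7 in the reads per kilobase of exon over these 4 genes, for each tumor, with the number of reads behind each bar. Myh4 leads in F325 and F331 with 51.6% and 51.4%, Myh2 in M408 with 43.5% and Myh1 in M664 with 81.4%.

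To show the genes behind these shares, the 250 bases before the transcription start are printed for Acta1 and for the fast heavy chains, which changed places between tumors. They were read from a table of RefSeq starts on GRCm38.p6, the assembly also called mm10, in which 28 of the 35 genes were matched, and are given 5′ to 3′ on the gene's own strand. Capitals mark matches to the consensus of MEF2, a factor that works with MyoD family members in muscle, and to the CArG box that serum response factor binds. Acta1 is at chr8:123894776-123895025 on the minus strand. Myh4 is at chr11:67237562-67237811, Myh1 at chr11:67199852-67200101 and Myh2 at chr11:67170777-67171026, all on the plus strand.
Acta1: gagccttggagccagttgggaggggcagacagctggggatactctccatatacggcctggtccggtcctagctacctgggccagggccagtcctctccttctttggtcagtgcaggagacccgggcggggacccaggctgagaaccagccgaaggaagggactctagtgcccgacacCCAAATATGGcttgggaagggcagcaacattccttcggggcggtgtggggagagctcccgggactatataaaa
Myh4: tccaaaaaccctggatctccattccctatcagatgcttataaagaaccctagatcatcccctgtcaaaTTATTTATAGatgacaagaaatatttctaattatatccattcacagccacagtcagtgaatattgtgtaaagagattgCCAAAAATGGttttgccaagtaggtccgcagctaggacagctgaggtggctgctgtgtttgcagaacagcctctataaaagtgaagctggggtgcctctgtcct
Myh1: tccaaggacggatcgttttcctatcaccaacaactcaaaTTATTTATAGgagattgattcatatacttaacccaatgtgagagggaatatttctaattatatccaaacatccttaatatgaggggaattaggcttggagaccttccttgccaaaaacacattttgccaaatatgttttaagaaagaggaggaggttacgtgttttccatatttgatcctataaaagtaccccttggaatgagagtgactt
Myh2: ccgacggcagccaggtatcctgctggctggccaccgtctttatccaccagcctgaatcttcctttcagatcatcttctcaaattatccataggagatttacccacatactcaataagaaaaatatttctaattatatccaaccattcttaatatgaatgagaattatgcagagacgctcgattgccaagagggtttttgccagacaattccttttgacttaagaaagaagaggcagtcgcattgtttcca
The Myh4 and Myh1 windows held the same 10 letters of a MEF2 match, beginning at -182 and -211 relative to the start. Myh4 also held a CArG match at -104 and Acta1 held one at -73, while neither consensus had a match in the Myh2 window. Of the 28 windows, 4 held a MEF2 match (14.3%, against 3.01% of 27025 windows of this length over all genes) and 4 a CArG match (14.3% against 1.40%), searched on both strands. The E-box CANNTG, bound by MyoD and its relatives and the same on both strands, was in 23 of the 28 windows (82.1%) and in 66.0% of all windows. The letters TATAAA, searched on both strands, were in 5 of the 28 windows (17.9%) and in 13.0% of all. A TATAAA match can overlap a MEF2 match, and a match of letters does not show that a factor binds there.

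Over 7 components that have a fast and a slow gene, the fast forms together took more reads per kilobase than the slow in all tumors except F187, where it could not be told, and M624. Per kilobase, the fast share was 91.2% in F325, 89.0% in F331, 93.4% in F368, 86.3% in M408, 83.1% in M9 and 87.5% in M664. It was lower in M351 at 72.3%, in F187 at 61.5% and in M624 at 44.5%. The 7 components include troponin C, whose fast gene Tnnc2 was hardly counted. That pair was 3.17% fast in F325, on 5 fast and 199 slow reads. It was 0% fast in F331, F368, M624 and M664, which had from 8 to 76 slow reads. The fast share without the troponin C pair was not computed. F187 had 44 fast and 33 slow reads with 21.4 and 17.0 expected as background, and the fast share of its counts had an exact 95% binomial interval of 45.4% to 68.4%. Within the heavy chain, the fast share was at least 92.8% in every tumor with over 100 heavy chain reads. In troponin T the fast form Tnnt3 came to between 92.1% and 98.9% of Tnnt3 and Tnnt1 together in F325, F331, F368, M408, M9 and M664. Troponin T was 71.9% fast in M351 and 7.45% fast in M624, where Tnnt1 had 173 of 183 reads, and the light chain pair of Myl1 and Myl3 was 5.40% fast in M624. In the same tumor troponin I was 96.9% fast on 180 reads, and the regulatory light chain pair of Mylpf and Myl2 was 87.6% fast on 34 reads, so its components were split. Myosin binding protein C, which crosslinks the thick filament, was more evenly split or mostly slow in the tumors rich in muscle transcripts. Its fast gene Mybpc2 had 2862 reads and its slow gene Mybpc1 had 2772 in F325, but the counts were 107 against 2237 in M408 and 93 against 1083 in M664. With this pair left out, chosen after seeing the data, the fast share over the other 6 components was 99.2% in M408, 94.4% in F325 and 94.4% in M664, so that M408 stood above F325 and not below it. The fast share of myosin binding protein C was 56.4% in F325, 44.8% in F368, 26.8% in M9, 9.72% in M664 and 5.66% in M408, and 89.8% in M624 on 24 reads. Mybpc2 was at 223 CPM in F325, 12.04 in F368, 2.37 in F187 and 1.12 in F331. In the Myc-knockin tumors Mybpc2 was at 4.92 CPM in M351, 19.6 in M408, 15.1 in M9, 0.800 in M624 and 4.02 in M664. The single tumor F325 set the mean of its group, and the other 3 p53-driven tumors lay within the Myc-knockin range. Its log2 fold change was -2.81 (standard error 1.35), and its edgeR adjusted p of 0.210 was the lowest of the 32 genes tested.

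The slow genes of troponin T, troponin I and the light chains were low beside their fast counterparts in F325, and fast troponin C was hardly counted. Tnni1, Tnnt1, Myl2 and Myl3, which encode slow troponin I, slow troponin T and slow light chains, stayed at or under 31.0 CPM in every tumor. Tnnc2, the fast troponin C of muscle, had 5 reads in F325, 1 in M408, 1 in M9 and none in the other 6 tumors, although the fast troponin T and I genes had 7160 and 1355 reads in F325. Exons of Ube2c on the other strand cover 74.0% of the exon bases of Tnnc2, 34.5% of its 76-base windows occur in another gene, and the part of this overlap in its low counts was not tested. Tnnc1, the slow and cardiac troponin C, had 199 reads in F325 and at most 76 elsewhere.

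Titin and the Z-disc made up the largest part of the sum in most tumors because titin is long. Ttn, with 116825 bases of exon on chromosome 2 of mm10 (76703980 to 76982547, minus strand), was at 119 CPM in F187, 8566 in F325, 178 in F331 and 1118 in F368. In the Myc-knockin tumors Ttn was at 216 CPM in M351, 4907 in M408, 587 in M9, 3.01 in M624 and 78.2 in M664. The groups overlapped, with F325 and M408 highest, and M624 and M664 below all other tumors. Of the Z-disc genes, Des, the intermediate filament desmin that links neighbouring Z-discs, was at 310 CPM in F325, 384 in M408 and 137 in M664. Actn3, the alpha-actinin of fast fibers, was at 326 CPM in F325 and 277 in M408, and Actn2, the form in all fibers, at 87.3 and 76.003 CPM. Myot, Ldb3, Tcap and Myoz1, which bind alpha-actinin or titin at the Z-disc, were each highest in F325, from 21.6 CPM for Myoz1 to 96.8 CPM for Myot. Myot, Tcap and Myoz1 had no read in M624.

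**Figure D3:**
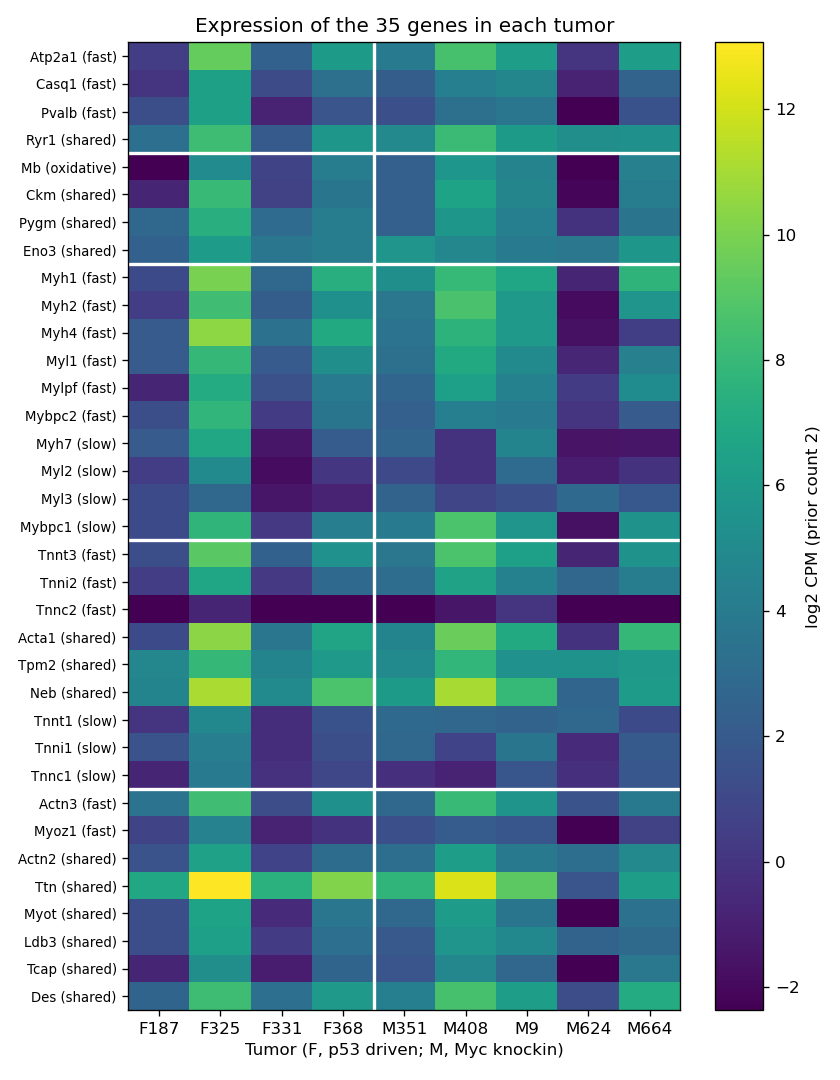
Log2 CPM, with a prior count of 2, of the 35 genes (lines, grouped by calcium handling, energy supply, thick filament, thin filament, and titin and Z-disc from the top) in the 9 tumors (columns). Colors are to be compared along a line, since CPM is not divided by gene length, and F325 and M408 are the brightest columns.

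The 4 calcium handling genes summed to 1172 CPM in F325 and 699.6 CPM in M408, the highest tumors, and to 11.6 CPM in F331, the lowest. Atp2a1, the SERCA pump of fast fibers, was at 1.19 CPM in F187, 688 in F325, 5.28 in F331 and 64.9 in F368. Across the Myc-knockin tumors Atp2a1 was at 16.0 CPM in M351, 385 in M408, 74.1 in M9, 0.800 in M624 and 78.1 in M664. The ranges overlapped, and the log2 fold change was -0.78 (standard error 1.55). Ryr1, the calcium release channel of skeletal muscle, departed from this order, with 315 CPM in F325, 286 in M408, 40.5 in M664 and 37.9 in M624, where 995 reads were counted. Casq1 and Pvalb, which store and buffer calcium in fast fibers, were at 82.7 and 86.0 CPM in F325 and at 26.3 and 12.7 CPM in M9, above M408 with 19.6 and 9.71 CPM. Among the energy supply genes, Ckm, muscle creatine kinase, was at 276 CPM in F325, 97.1 in M408 and 0.0381 in M624. Pygm, muscle glycogen phosphorylase, was at 158 CPM in F325, 55.1 in M408 and 0.724 in M624. Mb, the oxygen store myoglobin, was at 52.7 CPM in M408 and 33.8 CPM in F325, with no read in F187 or M624. Eno3, muscle enolase, was less tied to the other genes, at 51.1 CPM in M351, 56.4 in M664 and 67.7 in F325.

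Between the models, none of these genes passed the test. Of the 35, 32 had enough reads to be tested, and 0 were called by edgeR's quasi-likelihood test with a threshold of 0.05 on the adjusted p and of 1.5 on the fold, where 5.27% of the 15365 genes tested were called (2.26% higher with the Myc knockin, 3.00% lower). That share changed widely when 1 tumor was left out. The number of genes called, 809, was 5 without F368, 6 without F331, 8 without F325 and 1588 without M9, and the cause was not tested. An unadjusted p under 0.05 was reached by 0 of the 32, where 26.8% of all genes tested reached it, and DESeq2 also called 0, where it called 17.4% of all. In 0 of the 32 did the models have CPM ranges that do not overlap, where 13.0% of all genes tested did. The log2 fold changes ran from -2.86 for Myh4 to 0.82 for Mybpc1, with 24 below 0 and 8 above. Their median was -0.44, against 0.14 over all genes tested, but the median standard error was 1.36 on the log2 scale, against 0.45 over all genes. Differences of several-fold between the models could therefore not be seen for most of these genes, and p values that miss the threshold do not show that the models are alike. Single tumors decided the sign. Without F325 the median of the genes tested was 1.89, and without M408 it was -1.64. Without M624 and M664 it was 0.14, and without the 4 libraries rich in satellite reads, which leaves 3 tumors against 2, it was -2.20. In that fit Myh4 alone of these genes was called (log2 fold change -9.55, edgeR adjusted p = 0.0404), where 27.9% of the 16495 genes tested were called, and the Myc-knockin tumors left were M624 and M664, which stand apart in Rn7sk and on long genes. Within a model, the coefficient of variation of CPM had a median of 1.65 over the 32 genes in the p53-driven tumors, where all genes tested had 0.277, and of 1.19 in the Myc-knockin tumors, where all had 0.522. The p values measure the spread between these tumors.

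**Figure D4:**
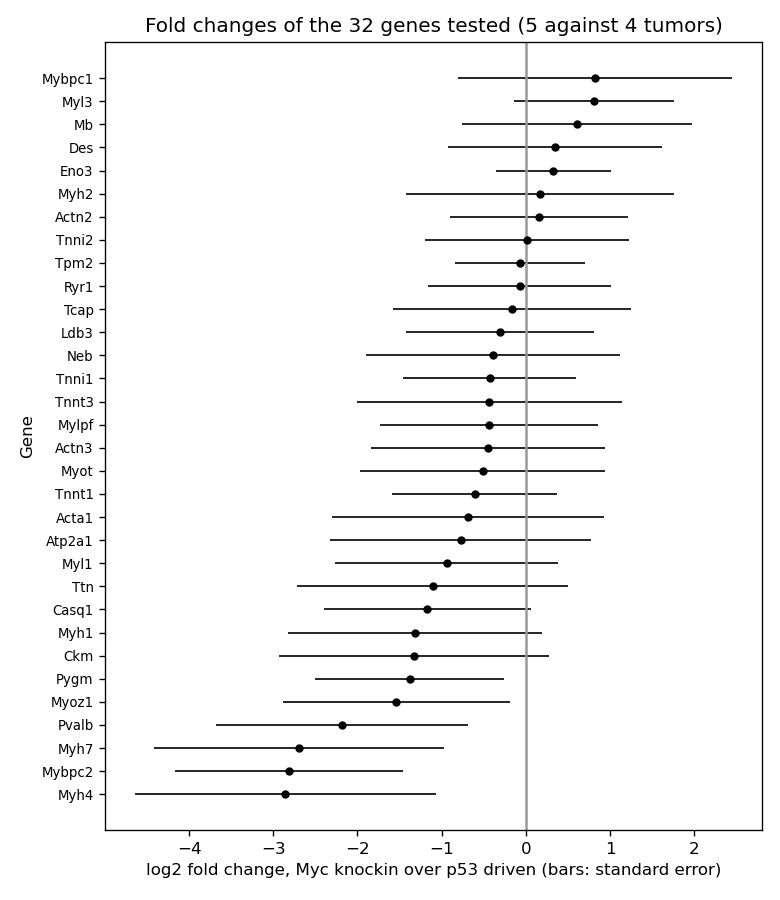
Log2 fold change, Myc knockin over p53 driven, of the 32 genes tested by edgeR in 5 against 4 tumors, with bars of 1 standard error. The values run from -2.86 for Myh4 to 0.82 for Mybpc1, and none of the 32 was called.

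By role, the thin filament had a median log2 fold change of -0.43 over 7 genes tested, titin and the Z-disc -0.38 over 8, and the thick filament -0.94 over 9. Calcium handling had -0.97 over 4 genes and energy supply -0.50 over 4. By fiber kind, the 13 fast genes tested had a median of -0.94 and the 5 slow genes -0.43. The median over all genes tested was 0.14. No member of any of these groups was called, where 5.27% of all genes tested were. With 4 to 13 genes tested in each, the lack of calls says little about a group.

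M664 carried muscle transcripts in proportions of its own. As a percentage of F325, its CPM over the 35 genes had a median of 11.1%, about that of F368, whose median was 10.996%. The percentages differed widely between genes. Acta1 stood at 17.7% of F325, Mylpf, the fast regulatory light chain, at 24.9% and Eno3 at 83.2%, while Neb stood at 3.10% and Ttn at 0.913%. F368 had 18.7% for Neb and 13.1% for Ttn, and M408 had 97.8% and 57.3%. Per kilobase, Ttn came to 8.31% of Acta1 in F325, 14.5% in F368, 8.60% in M408 and 6.09% in M9, but to 0.430% in M664. Ryr1, with 21838 bases of exon, stood at 12.9% of F325, and Myh4, with 6016 bases, at 0.0864%, when its neighbour Myh1 stood at 19.98%. Beyond muscle genes, the library had fewer reads on long genes in general. Relative to F325, F331 and F368, the log2 CPM of the 321 genes tested with more than 16000 bases of exon had a median difference of -1.12 in M664 and -0.78 in M624, and that of the 2617 genes under 2000 bases 0.40 and 0.14. The part of gene length in the low Ttn and Neb was not tested.

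**Figure D5:**
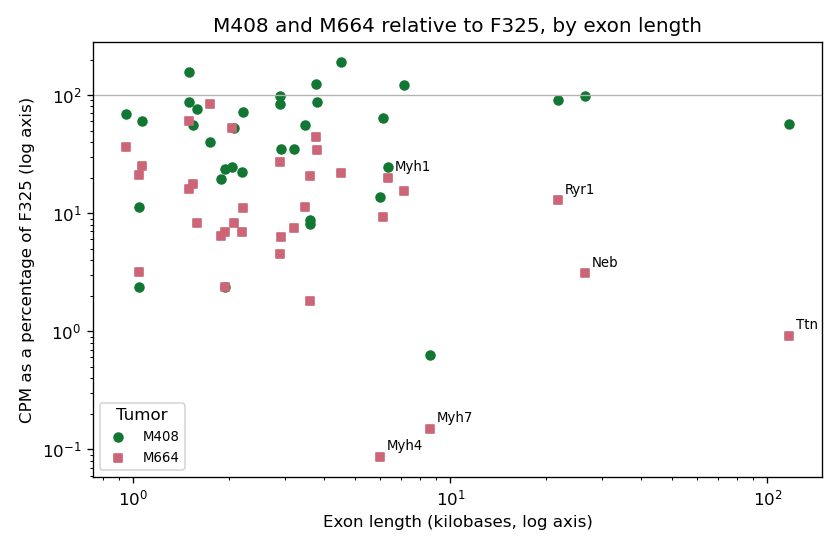
CPM of the muscle fiber genes in M408 and M664 as a percentage of F325, against exon length (both axes logarithmic), without Tnnc2. M664 falls to 0.913% for Ttn and to 0.0864% for Myh4, while M408 holds 57.3% and 13.8%.

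M624 had the lowest sum and an unusual selection of genes. It had 1 read on Ckm, 19 on Acta1, 79 on Ttn and 0 on Mb, Pvalb, Myot, Tcap and Myoz1 in the deepest library of the 9. It also had 995 reads on Ryr1, 1190 on Tpm2, 343 on Eno3, 237 on Actn2, 190 on Myl3, 173 on Tnnt1 and 167 on Tnni2. Acta1 was thus nearly absent where the ryanodine receptor was not, and Ryr1 per kilobase came to 368.3% of Acta1, against 1.64% in F325. Some genes that work beside Ryr1 are given here, chosen after their values were seen. Cacna1s, the voltage sensor that opens Ryr1, was at 40.3 CPM in M624, 68.3 in F325 and 41.0 in M408. Jph1, which holds the membranes of this junction together, was at 27.4 CPM in M624, 28.002 in F325 and 27.8 in M408. Trdn, the triadin of the same junction, was at 0.0762 CPM in M624 and 154 in F325. Of 16 genes of excitation-contraction coupling outside the 35, 5 reached at least 50% of F325 in M624, as did 1 of the 35.

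Other muscle genes were read in 5 lists of 70 genes outside the 35, of which the other sarcomere and the excitation-contraction genes had their highest sums in F325 and M408. The 20 other sarcomere genes summed to 90.5 CPM in F187, 4008 in F325, 70.6 in F331 and 511 in F368. Among the Myc-knockin tumors they summed to 230 CPM in M351, 1770 in M408, 443 in M9, 105 in M624 and 420 in M664. F325 and M408 were again the highest of their models. Xirp2, which binds actin where filaments meet the membrane, was the most abundant, at 2442 CPM in F325 and 854 in M408 but 0.0381 in M624. Flnc, the muscle filamin, reached 396 CPM in F325 and also 96.6 CPM in M624, and Myom1, an M-band crosslinker of myosin, 115 CPM in F325 and 2.51 in M624. Lists whose members other tissues also use moved less in their sums. The excitation-contraction genes, led by Atp2a2, Srl and Trdn, summed to between 278 CPM in F187 and 843 CPM in F325, and Atp2a2, the SERCA gene of slow muscle and most other cells, lay between 196 and 458 CPM in all tumors. In F187, Atp2a2 made up 236 of the 278 CPM. Other members of this list moved more, such as Trdn, from 0.0762 to 154 CPM, and Cacna1s, from 0.692 to 68.3 CPM. The muscle energy genes, led by Car3, Pfkm and Phka1, summed to between 66.8 CPM in M624 and 1179 CPM in F325. Genes of developing or regenerating muscle were low. Cdh15, a cadherin of muscle precursors, Myl4, an embryonic light chain, and Myh3, the embryonic heavy chain, led a list of 14 that summed to at most 157 CPM, in M9. The neuromuscular junction genes were led by Lrp4, Chrna1 and Musk and summed to between 38.2 CPM in M624 and 267 CPM in F368. Of the 70 genes, 57 were tested and 0 were called by edgeR, where 5.27% of all genes were, with 1 at an unadjusted p under 0.05 (Phka1), where 26.8% of all were, and their median log2 fold change was -0.02. In 1 of the 57 the models did not overlap in CPM, where 13.0% of all genes did not, namely Car3, a carbonic anhydrase of slow fibers and fat, with a mean of 658 ± 291 CPM (SD, n = 4) in p53-driven and 249.3 ± 140.3 CPM (SD, n = 5) in Myc-knockin tumors. Its log2 fold change was -1.40 (standard error 0.96, edgeR adjusted p = 0.374). The medians were -0.44 for the other sarcomere genes, 0.35 for excitation-contraction, -0.32 for energy, 0.66 for developing muscle and 0.91 for the junction.

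Genes outside the 35 were ranked by how closely their levels followed them. Among 11839 genes tested with a mean of at least 5 CPM, the likeness was the Pearson correlation of log2 CPM, over the 9 tumors, with the mean of the 32 genes tested. The first 10 were Pdlim3 (r = 0.988), Eef1a2 (0.986), Nrap (0.984), Klhl41 (0.983), Xirp1 (0.977), Trdn (0.975), Pgam2 (0.970), Smpx (0.967), Xirp2 (0.960) and Myo18b (0.959). Of the first 50, 18 were in the lists of other muscle genes, which held 40 of the 11839. These correlations describe 9 points that share library and depth. Pdlim3, a Z-disc protein that binds alpha-actinin, was at 0.790 CPM in F187, 103 in F325, 1.12 in F331 and 19.3 in F368. For the Myc-knockin tumors Pdlim3 was at 6.16 CPM in M351, 56.2 in M408, 20.7 in M9, 0.572 in M624 and 13.7 in M664, which is the order of the summed level with F368 and M9 exchanged.

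Sarcomere genes are shared in part with heart and smooth muscle, so the markers of these tissues were read beside them. Nppa and Myl7, an atrial hormone and an atrial light chain, had at most 0.797 CPM in any tumor. The 8 heart markers summed to 7.16 CPM in F325 and 18.7 CPM in M408, the tumors rich in muscle transcripts, and to 22.1 CPM in F187, 56.6 in M351 and 83.7 in M9, the libraries with the highest background. Ryr2, the heart ryanodine receptor and the most abundant marker of the list, was at 11.1, 35.1 and 41.4 CPM in F187, M351 and M9 and at most 0.183 CPM elsewhere. Tnnt2, the heart troponin T, lay between 0.432 and 15.1 CPM, and Mybpc3, its myosin binding protein C, reached 11.95 CPM in M9. Nppb, a hormone of the ventricle, was at 10.8 CPM in M408 and at most 0.616 CPM elsewhere. Tnni3, the heart troponin I, was at 12.7 CPM in M624. The sum over all heart markers was 13.9 CPM in M624, 11.8 in F368, 5.66 in M664 and 1.04 in F331. The 8 smooth muscle markers, led by Smtn, Acta2 and Myh11, summed to 135 CPM in F187, 120 in F325, 56.7 in F331 and 164 in F368. In the Myc-knockin tumors they summed to 119 CPM in M351, 49.4 in M408, 107 in M9, 99.6 in M624 and 86.2 in M664. They were thus not higher in F325 and M408, the pair highest in Acta1. Of these markers, 1 of 8 for heart and 6 of 8 for smooth muscle were tested. Between the models 0 of them were called, where 5.27% of all genes tested were, and with so few genes this says little about them. The CPM ranges of Tnni3, not tested, did not overlap, but the values nearest to each other were 3 reads in F187 and 2 reads in M351, at or under the floor.

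Lists for other tissues that can come with a resected bone tumor were read in the same way, and none of those given here had F325 and M408 as its 2 highest tumors. The 8 adipocyte markers, led by Fabp4, Cfd and Plin4, summed to 406 CPM in F187, 212 in F325 and 165 in M408, and to at most 193 in the other 6. The 4 endothelial markers, led by Cdh5, Pecam1 and Kdr, summed to between 75.0 CPM in M624 and 431 CPM in F331. The 7 red cell markers, led by Hba-a1, Hbb-bs and Alas2, summed to 784 CPM in M664 and 217 in M624 and to at most 46.9 elsewhere. The skin markers, led by Krt14, Krt5 and Krt10, summed to at most 51.7 CPM, in M351. The neutrophil precursor markers, led by Mpo, Ngp and Ltf, summed to at most 16.6 CPM, in M351. The chondrocyte markers, led by Col2a1, Sox9 and Acan, were highest in F331 at 2671 CPM and at most 178 CPM elsewhere. The osteoblast markers, led by Col1a1, Ibsp and Alpl, summed to 81017 CPM in F325 and 95587 CPM in F368 and to 5555 CPM in M408. Among the lists given here, they alone had genes called, with 2 of 9 lower in the Myc-knockin tumors, both of them osteocalcin genes. Over all genes tested, 3.00% were called lower and 5.27% in either direction, a share that changed widely when 1 tumor was left out. Bglap had a log2 fold change of -5.34 (standard error 1.05, edgeR adjusted p = 0.0260) and Bglap2 one of -5.42 (standard error 1.13, edgeR adjusted p = 0.0288).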

How the data were processed

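The study's methods state that whole-tumor RNA was enriched for mRNA with oligo-dT, and the authors deposited raw counts per gene without normalization. Rn7sk, without a poly(A) tail, was still at 8858 CPM or more in all libraries except the Myc-knockin tumors M624 and M664. These had 5.33 and 9.32 CPM, all with the satellite genes left out of the total. Whether every library was prepared in the same way was not tested. The submitters' processing notes name Trim Galore, STAR, featureCounts and mm10. Neither the strand setting nor the treatment of multi-mapping reads is given in the sources used here. No label names a column of the table, so columns were assigned to the p53-driven (F) or Myc-knockin (M) group by their names and the study's supporting data, and 3 of them (M351, M9 and M664) by the letter alone. The count table has 9 such columns.

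In R 4.3.3, edgeR 4.0.16 was run on the counts (TMM, filterByExpr with a minimum count of 10, glmQLFit and glmQLFTest), with Benjamini-Hochberg adjustment over 15365 genes. DESeq2 1.42.0 and limma 3.58.1 were alternatives. Exon lengths came from GENCODE. On simulated counts for this comparison (14688 genes tested), edgeR recovered 49.7% of 183 changed genes with 8.08% of its calls false. DESeq2 recovered 66.7% with 25.2% of its calls false. The changes were 4-fold or 8-fold, in genes drawn from all those tested. Recovery was not simulated for the 35 genes, whose median standard error was 1.36 against 0.45 over all genes.

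The text names all 35 genes, the 3 with the highest mean CPM in each of 15 lists, and the 10 genes with the highest correlation. The result of 1 of these lists is not reported here. Other names were chosen after their values were seen. The 35 genes, the lists and the tests were chosen with earlier results of these data known. The alternatives tried were other normalizations, filters and tools, removal of satellite genes, background or muscle genes, and the leaving out of tumors. The interval and floor values cover counting error only, and each column was taken as 1 tumor.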

Additional observations from a re-analysis of the deposited data

Results flagged for a closer look

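Of 72 groups of tumors tested, 1 for each model and each of the 35 genes and their summed level, 2 had 1 tumor far from the others, where chance alone gives about 1 in 20. Tnnt1, slow troponin T, was lowest in M664 among the Myc-knockin tumors, at 1.12 on the log2 CPM scale and 46 reads, with the other 4 close to each other. Tnnc2, fast troponin C, was highest in F325 among the p53-driven tumors, at -0.78 on the log2 CPM scale and 5 reads, with no read in the other 3, so that any read in 1 tumor would have set it apart.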

How the results depend on the processing

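No paired analysis was possible because the table's columns carry no replicate numbers. The number of genes called, 809, was 136 when scaled by library size alone, 494 over all genes with at least 1 count, 1316 with at least 10 counts in every tumor, 2670 by DESeq2 (1549 higher and 1121 lower, against 348 and 461), 1663 by limma-voom, and 4595 without the 4 libraries rich in satellite reads. With 1 tumor left out it ran from 5 (without F368) to 1588 (without M9). It was 8 without F325, 6 without F331, 335 without F187, 371 without M351 and 375 without M624. Among the genes tested of the 35, 0 were called in every one of these fits except that without F187, M351, M408 and M9, which left 3 tumors against 2 and called 1 lower, Myh4 (log2 fold change -9.55, edgeR adjusted p = 0.0404, with 0.329 over all tumors). The same fit called 2 other muscle genes, Colq and Phka1, both lower. The median log2 fold change of those tested, -0.44 over 32, was 0.14 by limma-voom, 0.14 without M624 and M664, -2.20 without the 4 satellite libraries, and from -1.64 (without M408) to 1.89 (without F325) with 1 tumor left out. The cause of these shifts was not tested. Over 641 fold changes of single genes in 21 settings, 86 changed sign, none of them called. Summed levels and fast shares moved by less than the SD within their model under the alternatives run. For the sums this SD was 9259 CPM in the p53-driven and 4880 CPM in the Myc-knockin tumors. It exceeded the sum itself in every tumor but F325 and M408, so in the others it does not show that the sum was stable. The order of tumors did change in part. Per total counts, the sum over the 35 genes was 696 CPM in M9, against 1959 by TMM, and 394 in M351, against 659. On that scale F187, at 213 CPM, lay below M624, at 235, and M664, at 1956, above M9. Depth limits F187, M351 and M9 most, where 3 counts are 1.19 to 2.39 CPM.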
